A study of Saccharomyces cerevisiae with 16 samples.

Results

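The genes described here are 35 budding yeast genes that respond to many kinds of stress and are typical targets of the transcription factors Msn2 and Msn4. They were taken as a list of gene symbols that leaves out the enzymes of carbohydrate metabolism and redox defence of the same response. All 35 had a probe, 1 each, among the 6388 gene probes of the array, and all were above background in both channels on all 16 arrays. Measured values did not enter the choice, but the list was drawn up with earlier results of these data known.

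Each of 8 strains was measured on 2 spotted 2-colour arrays. The product of FCP1 dephosphorylates the repeat tail of RNA polymerase II, the enzyme that makes mRNA. The strains carried fcp1-mut, an allele that the labels do not describe further, or FCP1 truncations named 1:713, 1:666, 1:609 and 1:594. In 3 further strains 1:666, 1:609 or 1:594 was combined with cdk8-del. CDK8, listed on the array as SSN3, encodes the kinase of the Mediator complex. All FCP1 alleles, in the strains with cdk8-del too, were labelled as FLAG-tagged. No strain carried cdk8-del with an untruncated FCP1. Cultures in mid-log phase were harvested from a plate reader, and no stress treatment is named for any of them. Every array set 1 strain against a reference pool whose genotype the labels do not give, although the series description speaks of wild type, and whose RNA was isolated by another protocol. The strain was labelled with Cy3 on the a array and with Cy5 on the b array. The labels do not say that a strain's 2 arrays used separate cultures, so the p-values cover the spread between these arrays, which may be technical. Values below are log2 ratios of strain over reference, scaled so that the typical gene of an array lies at 0. Differences between strains are differences of these ratios, given with their standard error from limma. A gene is named as called where its Benjamini-Hochberg adjusted p over all gene probes was under 0.01 and its fold above 1.7. In RNA of whole cultures, a change in every cell and a change in a share of the cells cannot be told apart.

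As background, Msn2 and Msn4 are zinc finger activators that bind the stress response element in the promoters of their targets. In cells growing on ample glucose, protein kinase A keeps them largely out of the nucleus, and heat, oxidants, high osmolarity or the exhaustion of glucose let them enter it. The Mediator kinase is known to phosphorylate Msn2, and its loss raises several stress genes in unstressed yeast. The products of the 35 genes protect proteins and membranes, remodel the cell surface, make glycerol, supply reducing power and restrain proteolysis and transcription.

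The median spot signal was 292 to 1058 for the strains and 211 to 974 for the reference. SSN3 was above background on 0 of the 6 cdk8-del arrays and on all 10 others. The FCP1 probe read low in the 4 strains with 1:609 or 1:594, from -3.49 in 1:609 to -2.77 in 1:594. It was not called in the other 4. Probe sequences were not used, so whether this probe lies in the part of FCP1 that these truncations lack was not examined. The 4 strains with 1:609 or 1:594 also had high LYS2, a lysine synthesis gene used as a marker, from 2.73 to 3.40. MET17, a methionine synthesis gene also used as a marker, was at -0.060 with cdk8-del in 1:666 and at -0.44 with it in 1:594, against -4.91 to -4.51 in the other 6. The strains may therefore differ in more than the named alleles, which was not tested. What the differences in LYS2 and MET17 contribute cannot be told apart from the alleles.

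By their median, the 35 stress genes lay close to the typical gene in the strains that kept CDK8 and well above it in the strains without it. Their median on the a and b arrays was -0.11 and 0.088 in fcp1-mut, -0.066 and 0.0097 in 1:713, -0.27 and -0.16 in 1:666, -0.29 and -0.062 in 1:609 and -0.15 and 0.091 in 1:594. It was 1.68 and 1.76 in 1:666 cdk8-del, 1.0 and 0.98 in 1:609 cdk8-del and 0.91 and 1.34 in 1:594 cdk8-del. The 6 cdk8-del arrays thus stood above the other 10, and 1:666 cdk8-del stood highest. In 1:666 with CDK8, 30 of the 35 strain means were below 0 and 5 above, where 48.5% of all probes were below. In 1:609 with CDK8 the strain means ran from -2.62 for YGP1 to 1.11 for HSP12. In 27 of the 35 genes every cdk8-del array was above all 10 other arrays, an order shown by 5.48% of all probes. In 31 of the 35 the highest strain mean was that of 1:666 cdk8-del, which held for 19.3% of all probes. The strain means of a stress gene spanned a median of 2.31 log2 units, against 0.35 for all probes. In 32 of 35 genes the span exceeded 0.80, the 90th percentile of all probes.

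**Figure D1:**
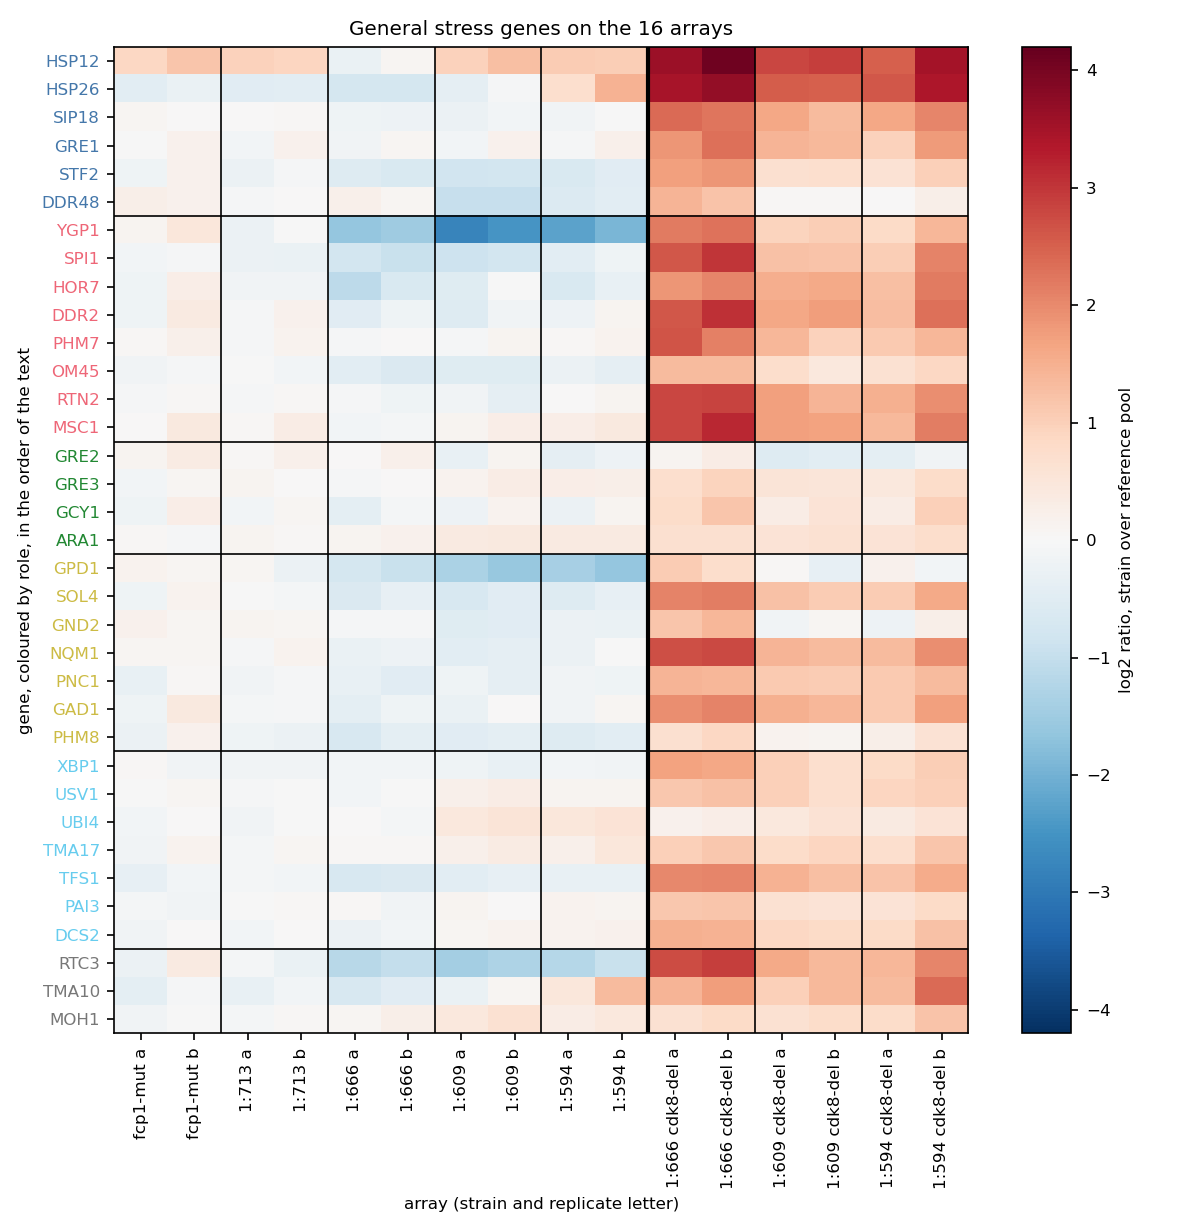
Log2 ratio of strain over reference for the 35 stress genes (rows, ordered by role) on the 16 arrays (columns, a and b arrays of each strain side by side); colour gives the ratio from blue (below 0) to red (above 0). The 6 columns of the cdk8-del strains are red in nearly every row, with medians of 1.68 and 1.76, 1.0 and 0.98 and 0.91 and 1.34, and YGP1, RTC3 and GPD1 are blue in 1:666, 1:609 and 1:594.

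The comparison of each truncation with and without CDK8 asked what loss of the Mediator kinase does to these genes. Most of the stress genes rose in all 3 truncations. In 1:666 limma called 31 of 35 higher and 0 lower, where 3.96% of all probes were called in either direction, 3.26% higher and 0.704% lower. In 1:609 it called 22 higher and 0 lower (1.63% of all probes, 1.36% higher and 0.266% lower), and in 1:594 it called 24 higher and 0 lower (2.1%, 1.63% higher and 0.47% lower). The median difference of the 35 genes was 2.12, 1.32 and 1.29 in that order, where the medians of all probes were -0.0029, -0.0043 and -0.0035. Averaged over the truncations, 28 of 35 were called higher and 0 lower, at a median of 1.53 and against 2.71% of all probes (2.33% higher, 0.376% lower). Of the 73 probes called higher in each of the 3 truncations, which are 1.14% of all, 21 were stress genes, which is 21 of the 35. GRE2, ARA1, UBI4 and MOH1 were called in no truncation. The arrays with and without CDK8 did not overlap, with CDK8-free arrays higher, for 34 stress genes in 1:666, 33 in 1:609 and 33 in 1:594, an order shown by 26.3%, 22% and 20.7% of all probes. MET17 was low in both strains of the 1:609 pair only, at -5.01 and -4.82 with CDK8 and -4.74 and -4.54 without, and its part in the rises was not tested. With the replicate letter as a block, TMA10 was called too in 1:609 and 1:594, for counts of 23 and 25, where 2.32% and 2.16% of all probes were called higher. Scaled on the external control RNA instead, limma called 0 stress genes in 1:666, 1:609 or 1:594, where it called 0 of all probes. On average it called 11, of 21 probes called in all. The medians of the stress genes were 2.53, 1.56, 1.24 and 1.70 in that order. With that scaling and the replicate block the counts were 31, 29, 23 and 30, of 366, 309, 137 and 235 probes called in all. The count in 1:609 was 14 without the 1:609 a array and 13 without the 1:609 cdk8-del a array, and in 1:594 it was 13 without the 1:594 a array.

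**Figure D2:**
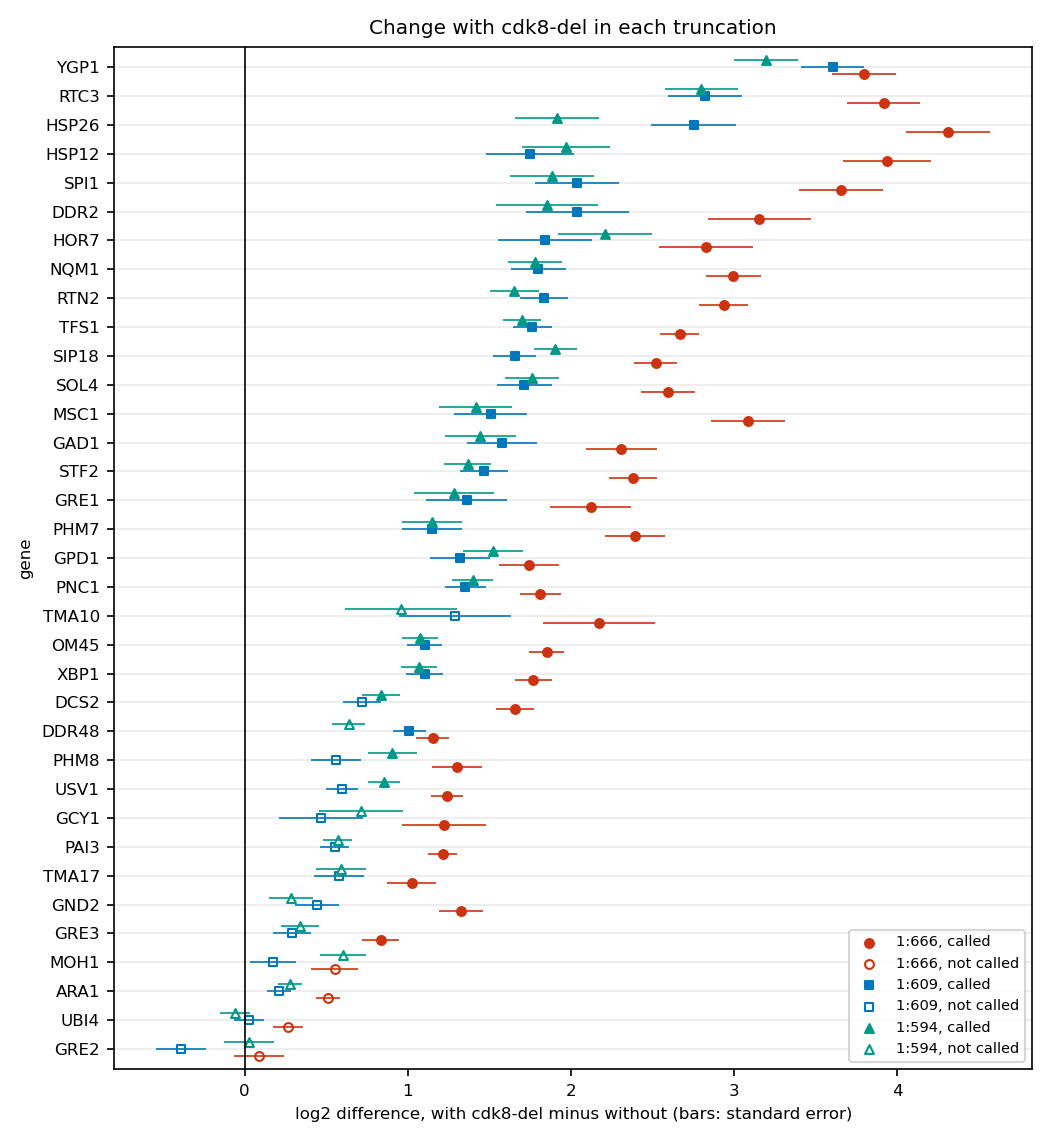
Log2 difference between the cdk8-del strain and the strain with CDK8 (horizontal axis, with bars for the standard error) for each stress gene (vertical axis) in 1:666, 1:609 and 1:594; filled symbols were called. Nearly all symbols lie right of 0, and the symbol for 1:666 lies farthest right in 34 of 35 genes.

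Among the genes for surface and membrane proteins, all 8 were called higher with cdk8-del in every truncation. In 1:666, 1:609 and 1:594 the shares of all probes called higher were 3.26%, 1.36% and 1.63%. Where 3 differences are given with no truncation named, they are those in 1:666, 1:609 and 1:594, in that order. The group's median difference was 3.01 in 1:666, 1.84 in 1:609 and 1.75 in 1:594. YGP1, which encodes a secreted glycoprotein of the cell wall made when nutrients run low, had the largest average rise of all 6388 probes. With CDK8, YGP1 read 0.10 and 0.49 on the a and b arrays of fcp1-mut, -0.26 and -0.026 in 1:713, -1.61 and -1.50 in 1:666, -2.77 and -2.48 in 1:609 and -2.26 and -1.94 in 1:594. Without it, YGP1 read 2.19 and 2.29 in 1:666 cdk8-del, 0.94 and 1.02 in 1:609 cdk8-del and 0.81 and 1.38 in 1:594 cdk8-del. The shorter truncations with CDK8 held the lowest values of YGP1 and the cdk8-del strains the highest, with no overlap between arrays with and without CDK8. The rise was 3.80 ± 0.19 in 1:666 (limma, adjusted p = 7.9e-07), 3.60 ± 0.19 in 1:609 (adjusted p = 4.5e-06) and 3.19 ± 0.19 in 1:594 (adjusted p = 9.8e-06), about 13.9, 12.2 and 9.16 fold. YGP1 thus started from different levels and rose by amounts whose differences limma did not call, -0.19 ± 0.28 for 1:609 less 1:666 and -0.60 ± 0.28 for 1:594 less 1:666.

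SPI1 encodes a cell wall protein held by a lipid anchor that accumulates as cultures leave exponential growth. In the strains with CDK8, SPI1 was at -0.11 and -0.036 in fcp1-mut, -0.25 and -0.27 in 1:713, -0.77 and -0.93 in 1:666, -0.88 and -0.78 in 1:609 and -0.44 and -0.18 in 1:594. In the cdk8-del strains it was at 2.62 and 2.99, 1.23 and 1.18 and 1.04 and 2.09 with 1:666, 1:609 and 1:594. All cdk8-del arrays lay above all others, and those of 1:666 cdk8-del lay above those of the other cdk8-del strains. The differences were 3.65 ± 0.26, 2.04 ± 0.26 and 1.88 ± 0.26, each called. DDR2, a small protein induced by DNA damage and many other stresses, showed -0.17 and 0.38, -0.043 and 0.19, -0.49 and -0.16, -0.54 and -0.15 and -0.21 and 0.10 in fcp1-mut, 1:713, 1:666, 1:609 and 1:594. It reached 2.59 and 3.07 in 1:666 cdk8-del, 1.63 and 1.75 in 1:609 cdk8-del and 1.28 and 2.31 in 1:594 cdk8-del. The groups with and without CDK8 did not overlap for DDR2, whose b array was the higher of the pair in each strain with CDK8. Its differences were 3.16 ± 0.31, 2.04 ± 0.31 and 1.85 ± 0.31, each called.

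HOR7, a small plasma membrane protein of the response to high osmolarity, was at -0.20 and 0.29 in fcp1-mut, -0.15 and -0.14 in 1:713, -1.10 and -0.64 in 1:666, -0.52 and -0.025 in 1:609 and -0.65 and -0.31 in 1:594. It stood at 1.85 and 2.07 in 1:666 cdk8-del, 1.53 and 1.60 in 1:609 cdk8-del and 1.27 and 2.19 in 1:594 cdk8-del. HOR7 was higher on every cdk8-del array, by 2.83 ± 0.29, 1.84 ± 0.29 and 2.21 ± 0.29, and the a array was the lower of the pair in all 8 strains. It was near saturation on 1 array. RTN2, a reticulon-like protein that bends membranes of the endoplasmic reticulum, lay at -0.047 and 0.062, -0.035 and 0.046, -0.043 and -0.18, -0.15 and -0.37 and 0.022 and 0.12 in the 5 strains with CDK8, in the same order as above. RTN2 lay at 2.82 and 2.82, 1.72 and 1.42 and 1.49 and 1.97 in the cdk8-del strains with 1:666, 1:609 and 1:594. RTN2 did not overlap between arrays with and without CDK8, and the differences of 2.93 ± 0.15, 1.83 ± 0.15 and 1.65 ± 0.15 were all called. MSC1, whose product affects meiotic recombination, lay at 0.012 and 0.41, 0.040 and 0.31, -0.12 and -0.093, 0.11 and 0.27 and 0.26 and 0.41 with CDK8. It lay at 2.79 and 3.16, 1.73 and 1.68 and 1.37 and 2.14 without it. The 1:666 cdk8-del arrays were again the highest, and the differences were 3.08 ± 0.22, 1.51 ± 0.22 and 1.42 ± 0.22. The other surface and membrane genes were OM45, encoding an abundant protein of the mitochondrial outer membrane (1.85, 1.10 and 1.07), and PHM7, encoding a membrane protein of unsettled role (2.39, 1.15 and 1.15).

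The chaperone and hydrophilin genes protect proteins and membranes from unfolding and drying. All 6 were called higher in 1:666 and in 1:609, and 5 of 6 in 1:594, at medians of 2.45, 1.56 and 1.64. The shares of all probes called higher were 3.26%, 1.36% and 1.63%. HSP26 encodes a small heat shock protein that holds unfolded proteins. With CDK8 it read -0.45 and -0.29 in fcp1-mut, -0.47 and -0.44 in 1:713, -0.74 and -0.72 in 1:666, -0.38 and -0.062 in 1:609 and 0.71 and 1.45 in 1:594. With cdk8-del it read 3.47 and 3.69 in 1:666, 2.55 and 2.51 in 1:609 and 2.59 and 3.39 in 1:594. HSP26 was below the reference in 4 of the strains with CDK8, above it in 1:594, and above all of these on every cdk8-del array. Its difference of 4.31 ± 0.26 in 1:666, about 19.9 fold, was the largest of any stress gene there (limma, adjusted p = 2.2e-06). It was 2.75 ± 0.26 in 1:609 (limma, adjusted p = 1.3e-04) and 1.91 ± 0.26 in 1:594 (adjusted p = 0.0011).

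HSP12 encodes a small protein that folds on membranes and keeps them stable under stress. Its values were 0.86 and 1.16 in fcp1-mut, 0.98 and 0.91 in 1:713, -0.27 and 0.082 in 1:666, 0.96 and 1.25 in 1:609 and 1.06 and 1.02 in 1:594. Its values with cdk8-del were 3.60 and 4.09 in 1:666, 2.81 and 2.89 in 1:609 and 2.53 and 3.49 in 1:594. HSP12 was near the reference in 1:666 alone and about 1 log2 unit above it in the other 4 strains with CDK8, and the 1:666 arrays did not overlap theirs. The rise with cdk8-del was 3.94 ± 0.27 in 1:666 (limma, adjusted p = 4.4e-06), 1.75 ± 0.27 in 1:609 (adjusted p = 0.0028) and 1.97 ± 0.27 in 1:594 (adjusted p = 0.0011). Among the remaining genes of this group, the hydrophilin genes SIP18 and GRE1 rose by 2.52, 1.66 and 1.91 and by 2.12, 1.36 and 1.29. STF2, whose product guards cells against drying, rose by 2.38, 1.47 and 1.37. DDR48, a hydrophilic protein induced by DNA damage, rose by 1.15 and 1.01 in 1:666 and 1:609 and was not called in 1:594, at 0.64. DDR48, PAI3 and SIP18 are adjacent genes on chromosome XIII, and GAD1 and HOR7 are separated by 1 gene there, so these are not independent places in the genome.

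Enzymes of glycerol synthesis, the pentose phosphate pathway and other reactions were called higher in 7 of 7 cases in 1:666, 5 of 7 in 1:609 and 6 of 7 in 1:594. The shares of all probes called higher were 3.26%, 1.36% and 1.63%. GPD1 encodes the glycerol-3-phosphate dehydrogenase that makes glycerol under high osmolarity. GPD1 read 0.14 and 0.088 in fcp1-mut, 0.085 and -0.25 in 1:713, -0.75 and -0.93 in 1:666, -1.33 and -1.60 in 1:609 and -1.38 and -1.62 in 1:594. It read 1.08 and 0.73 in 1:666 cdk8-del, 0.065 and -0.35 in 1:609 cdk8-del and 0.16 and -0.11 in 1:594 cdk8-del. GPD1 was low in the 3 shorter truncations with CDK8. In the cdk8-del strains it was above the reference with 1:666 and at about the reference level with 1:609 and 1:594. The rise was 1.74 ± 0.18, 1.32 ± 0.18 and 1.52 ± 0.18, each called, and limma called no difference between the rises (-0.42 ± 0.26 and -0.22 ± 0.26 against 1:666).

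NQM1, a transaldolase-like enzyme, lay at 0.087 and 0.077, -0.054 and 0.14, -0.28 and -0.21, -0.46 and -0.37 and -0.26 and -0.022 in fcp1-mut, 1:713, 1:666, 1:609 and 1:594. It lay at 2.72 and 2.78, 1.44 and 1.33 and 1.32 and 1.96 in the cdk8-del strains with 1:666, 1:609 and 1:594. NQM1 did not overlap between arrays with and without CDK8 and rose by 2.99 ± 0.17, 1.80 ± 0.17 and 1.78 ± 0.17. SOL4, a 6-phosphogluconolactonase of the pentose phosphate pathway, lay at -0.18 and 0.14, -0.031 and -0.068, -0.60 and -0.36, -0.66 and -0.47 and -0.54 and -0.34 with CDK8. Without CDK8 it lay at 2.07 and 2.16, 1.21 and 1.08 and 1.06 and 1.58. SOL4 too was higher on every cdk8-del array, by 2.60 ± 0.17, 1.71 ± 0.17 and 1.76 ± 0.17. GND2, which encodes the next enzyme of the pathway, rose by 1.33 ± 0.14 in 1:666 and was not called in 1:609 (0.44 ± 0.14) or 1:594 (0.28 ± 0.14). GAD1, which converts glutamate to gamma-aminobutyrate, rose by 2.31, 1.58 and 1.45, and PNC1, the nicotinamidase of NAD salvage, by 1.81, 1.35 and 1.40. PHM8, a phosphatase of nucleotides and lysophosphatidic acid, rose in 1:666 and 1:594 (1.30 and 0.91) and was not called in 1:609 (0.56).

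The reductases of aldehydes and ketones had the smallest median difference of the 6 role groups in each truncation, 0.67, 0.25 and 0.31. GRE3, an aldose reductase, rose by 0.83 ± 0.12 in 1:666, and GCY1, a glycerol dehydrogenase, by 1.22 ± 0.26. None of the 4 reductases was called in 1:609 or 1:594, where GRE3 was at 0.29 and 0.34 and GCY1 at 0.47 and 0.71. The shares of all probes called higher were 3.26% in 1:666, 1.36% in 1:609 and 1.63% in 1:594. ARA1, an arabinose dehydrogenase, had a fold under the threshold in 1:666, at 0.51 ± 0.073 (limma, adjusted p = 6.8e-04). GRE2, a methylglyoxal reductase that also responds to oxidants and osmotic stress, was at 0.089 ± 0.15, -0.39 ± 0.15 and 0.025 ± 0.15, and its arrays overlapped in 1:666 and 1:594.

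Genes that act on transcription, proteolysis and RNA turnover were called higher in 6 of 7 cases in 1:666, 2 of 7 in 1:609 and 4 of 7 in 1:594. The shares of all probes called higher were 3.26%, 1.36% and 1.63%. XBP1 encodes a repressor that shuts down cell cycle genes when growth stops. XBP1 was at 0.045 and -0.15 in fcp1-mut, -0.15 and -0.16 in 1:713, -0.12 and -0.13 in 1:666, -0.18 and -0.32 in 1:609 and -0.12 and -0.16 in 1:594. It was at 1.68 and 1.61 in 1:666 cdk8-del, 1.0 and 0.70 in 1:609 cdk8-del and 0.81 and 1.05 in 1:594 cdk8-del. Every cdk8-del array of XBP1 lay above all arrays with CDK8, and those of 1:666 cdk8-del were the highest. It rose by 1.77 ± 0.11, 1.10 ± 0.11 and 1.07 ± 0.11, each called. TFS1, the inhibitor of carboxypeptidase Y, read -0.33 and -0.10, -0.085 and -0.13, -0.69 and -0.60, -0.44 and -0.36 and -0.33 and -0.31 with CDK8, in the same order of strains. TFS1 read 2.01 and 2.04, 1.47 and 1.26 and 1.20 and 1.56 without CDK8. The 1:666 arrays of TFS1 were the lowest with CDK8 and the 1:666 cdk8-del arrays the highest of all, and the rise was 2.67 ± 0.12, 1.76 ± 0.12 and 1.70 ± 0.12.

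PAI3, the inhibitor of proteinase A, rose by 1.21 in 1:666 and had a fold under the threshold in 1:609 (0.55) and 1:594 (0.57). DCS2, which restrains the scavenger decapping enzyme, rose in 1:666 and 1:594 (1.66 and 0.84) and was at 0.72 in 1:609. USV1, a zinc finger transcription factor, did likewise (1.24 and 0.85, with 0.60 in 1:609). TMA17, which assists proteasome assembly, rose by 1.02 in 1:666 and was not called in 1:609 (0.58) or 1:594 (0.59). UBI4, the polyubiquitin gene that supplies ubiquitin under stress, was at 0.27 ± 0.093, 0.027 ± 0.093 and -0.059 ± 0.093 and was not called.

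Of the little-characterised genes, RTC3 had the largest rise, which ranked 3 among all probes on average. RTC3 lay at -0.24 and 0.39 in fcp1-mut, -0.089 and -0.27 in 1:713, -1.18 and -1.01 in 1:666, -1.41 and -1.28 in 1:609 and -1.21 and -0.94 in 1:594. It lay at 2.75 and 2.89 in 1:666 cdk8-del, 1.58 and 1.36 in 1:609 cdk8-del and 1.41 and 2.04 in 1:594 cdk8-del. RTC3 was low on all 6 arrays of the shorter truncations and high on all cdk8-del arrays. It rose by 3.92 ± 0.22, 2.82 ± 0.22 and 2.80 ± 0.22. TMA10, which associates with ribosomes, rose by 2.17 ± 0.34 in 1:666 and was not called in 1:609 (1.29 ± 0.34) or 1:594 (0.96 ± 0.34). MOH1 was at 0.55, 0.17 and 0.60 and was not called.

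**Figure D3:**
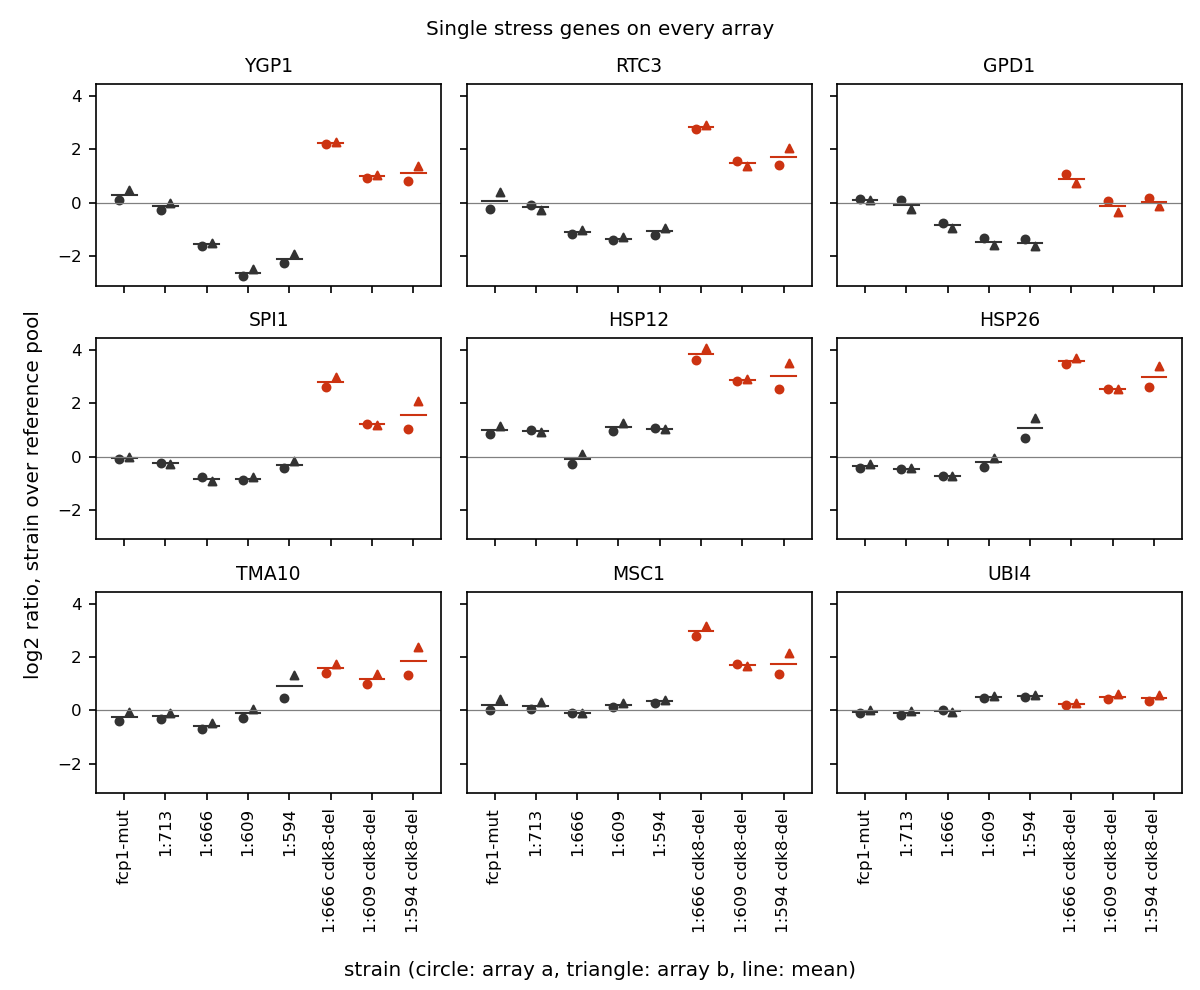
Log2 ratio of strain over reference on each array (circles for a, triangles for b, lines for the strain mean, red for cdk8-del) for 9 stress genes in the 8 strains. YGP1 and GPD1 lie below 0 in the shorter truncations with CDK8, HSP12 is near 0 in 1:666 alone among those strains, HSP26 is high in 1:594, and these genes are higher with cdk8-del.

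Whether the rise depended on the truncation was tested as the difference between the cdk8-del effects. The rise was largest in 1:666 in 34 of 35 stress genes, MOH1 being the exception, where 34.6% of all probes had their highest value in 1:666. The median difference was -0.76 for 1:609 less 1:666 and -0.78 for 1:594 less 1:666, against -0.0041 and -0.0011 for all probes. These comparisons share the 1:666 arrays. limma called 0 stress genes in either of them, with 25 and 27 lower at an unadjusted p under 0.05 (all probes 4.6% and 5.42%) and 0 higher (all probes 2.29% and 2.69%). After adjustment it called 0.0157% of all probes (0% higher) and 0.157% (0.0157% higher, 0.141% lower). Fitted with the replicate block, which takes out the shift that arrays of one dye orientation share, 10 and 12 stress genes were called lower and 0 higher, against 0.564% and 0.704% of all probes in that direction. With the block and median centring the counts were 2 and 3 stress genes, of 17 and 14 probes called in all, and with the block and external control scaling they were 1 and 9, of 3 and 28 probes. In the blocked fit on the lowess values the difference for 1:609 less 1:666 was -2.19 ± 0.26 for HSP12 (limma, adjusted p = 0.0015), -1.62 ± 0.30 for SPI1 (adjusted p = 0.0094) and -1.58 ± 0.21 for MSC1 (adjusted p = 0.0017). For 1:594 less 1:666 it was -2.40 ± 0.25 for HSP26 (limma, adjusted p = 3.8e-04), -1.97 ± 0.26 for HSP12 (adjusted p = 0.002) and -1.77 ± 0.30 for SPI1 (adjusted p = 0.0054). Without the 1:594 cdk8-del b array, the median difference of the stress genes for 1:594 less 1:666 was -1.02, and without its a array it was -0.56. Between 1:594 and 1:609 the median difference was -0.019. There limma called 0 stress genes with or without the block, with 2 lower at an unadjusted p under 0.05 (all probes 3.07%), and 0.125% of all probes (0.0157% higher, 0.11% lower, 0.204% with the block). In 17 of 35 stress genes 1:666 had the lowest strain mean, against 8.88% of all probes, and 1:609 had it in 10, among them YGP1 and RTC3, against 16.9%. The medians of the 35 genes against the reference were -0.20 in 1:666, -0.22 in 1:609 and -0.065 in 1:594. In 27 of 35 both 1:666 cdk8-del arrays lay above the 4 arrays of the other cdk8-del strains, against 17.9% of all probes. MET17 separates 1:666 cdk8-del and 1:594 cdk8-del from their partners and LYS2 separates 1:666 from 1:609 and 1:594, and the part of these strain differences was not tested.

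The truncations with CDK8 were then compared with 1:713, the longest. These comparisons share the 1:713 arrays. YGP1 and GPD1 fell in 1:609 and 1:594, RTC3 and DDR48 fell in 1:609, and HSP26 rose in 1:594. In 1:609 limma called 4 of 35 stress genes lower and 0 higher, against 1.97% of all probes (0.501% higher, 1.47% lower). YGP1 fell by 2.48 ± 0.19 (limma, adjusted p = 2.4e-05), GPD1 by 1.38 ± 0.18 (adjusted p = 6.7e-04), RTC3 by 1.17 ± 0.22 (adjusted p = 0.0054) and DDR48 by 0.95 ± 0.10 (adjusted p = 1.8e-04). In 1:594 it called 2 lower and 1 higher, against 1.27% of all probes (0.423% higher, 0.845% lower). YGP1 was at -1.96 ± 0.19 (limma, adjusted p = 1.3e-04), GPD1 at -1.41 ± 0.18 (adjusted p = 7.7e-04) and HSP26 at 1.53 ± 0.26 (adjusted p = 0.0039). The replicate block raised the count in 1:594 to 5, adding TMA10 (1.11 ± 0.17) and RTC3 (-0.89 ± 0.18), against 1.63% of all probes.

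In 1:666 limma called 0 stress genes against 1:713, and 0.047% of all probes in either direction, 0% being higher. At an unadjusted p under 0.05 it had 11 lower and 0 higher, where 5.37% of all probes were lower and 4.12% higher. With the replicate block it called 3 lower, against 0.172% of all probes: YGP1 at -1.41 ± 0.10 (limma, adjusted p = 1.7e-05), HSP12 at -1.04 ± 0.19 (adjusted p = 0.0062) and RTC3 at -0.91 ± 0.18 (adjusted p = 0.0085). The median of the 35 genes was -0.24 in 1:666, -0.13 in 1:609 and -0.056 in 1:594, where the medians of all probes were 0.0025, 0.0023 and 0.0011. The 1:666 arrays lay below the 1:713 arrays without overlap for 21 of 35 genes, against 16.6% of all probes, and above them for 3, against 14.9%. GPD1, at -0.76, -1.38 and -1.41, and GRE2, at -0.0065, -0.23 and -0.43, were the only stress genes whose strain means fell in the order of truncation length, which 8.5% of all probes did. UBI4 was at 0.59 ± 0.093 in 1:609 (limma, adjusted p = 0.0019) and 0.62 ± 0.093 in 1:594 (adjusted p = 0.0021), with a fold under the threshold, and at 0.065 in 1:666. The genes expressed in alpha cells only, MF(ALPHA)1, MF(ALPHA)2, SAG1 and STE3, were all called lower in 1:609 and in 1:594. Their medians were -2.01 and -1.85, beside the low FCP1 probe signal and high LYS2 there. Of 7 genes expressed in a cells only, 0 were called in 1:609 or 1:594, at medians of 0.12 and 0.045. With cdk8-del, MF(ALPHA)2 and SAG1 were called higher in 1:609 and MF(ALPHA)2 in 1:594. What the genes of alpha cells had to do with the falls of the stress genes was not tested. Under external control scaling limma called 0 stress genes in 1:609 and 0 in 1:594, and under median centring 1 in each. Of all probes, external control scaling called 0 in each, and median centring called 49 in 1:609 and 37 in 1:594. Without the 1:609 b array the count in 1:609 was 2, and without the 1:713 a array or the 1:594 b array the count in 1:594 was 1.

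**Figure D4:**
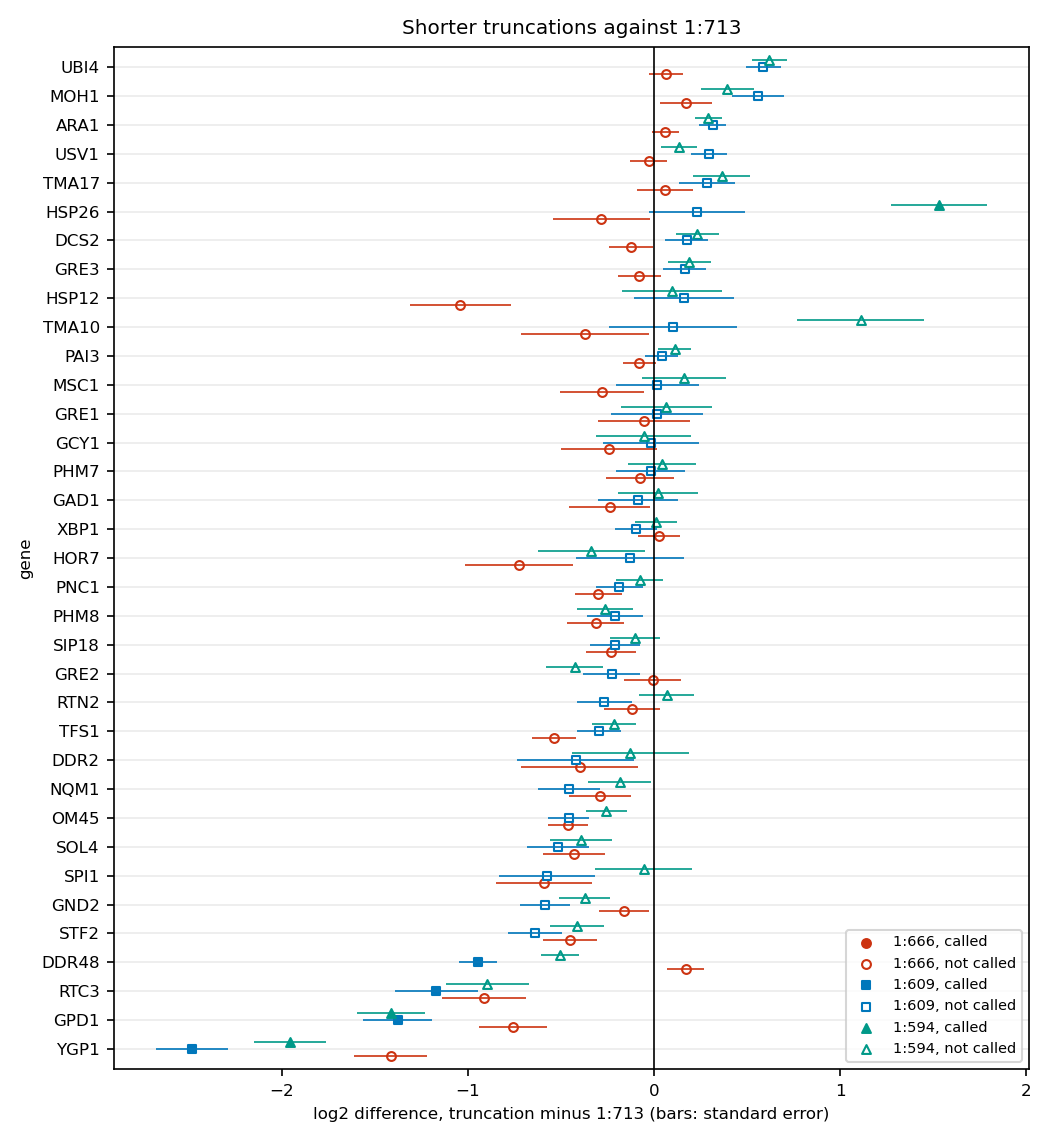
Log2 difference from 1:713 (horizontal axis, with bars for the standard error) for each stress gene (vertical axis, ordered by the value in 1:609) in 1:666, 1:609 and 1:594; filled symbols were called. Most symbols lie within 0.5 of 0, with YGP1, GPD1 and RTC3 at the lower end and HSP26 of 1:594 at 1.53.

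Against the reference pool, limma called 0 stress genes in fcp1-mut, where 0.235% of all probes were called (0.125% higher, 0.11% lower), and 0 in 1:713, where 0.172% were (0.0626% higher, 0.11% lower). Unadjusted p-values under 0.05 numbered 2 for higher and 1 for lower stress genes in fcp1-mut, and 1 and 1 in 1:713. Of all probes 6.23% and 6.31% were higher and lower by that rule in fcp1-mut, and 4.65% and 4.21% in 1:713. HSP12 was the highest in both, at 1.01 ± 0.19 (limma, adjusted p = 0.022) and 0.95 ± 0.19 (adjusted p = 0.043), and with the replicate block it was called in each, against 0.235% and 0.172% of all probes called higher. In 1:666 YGP1, RTC3 and GPD1 were called lower, at -1.56, -1.09 and -0.84, against 0.626% of all probes (0.125% higher, 0.501% lower). The block added HOR7 (-0.87) and SPI1 (-0.85), against 0.564% of all probes called lower. In 1:609 YGP1, RTC3, GPD1, DDR48, SPI1 and STF2 were called lower, from -2.62 for YGP1 to -0.78 for STF2, and HSP12 higher, against 3.12% of all probes (0.72% higher, 2.4% lower). In 1:594 YGP1, RTC3 and GPD1 were called lower and HSP12 and HSP26 higher, against 2.25% (0.657% higher, 1.6% lower). The block added TMA10 there (0.90), against 0.704% of all probes called higher. In the cdk8-del strains 31, 22 and 24 of 35 stress genes were called higher than the reference and 0 lower, with 1:666, 1:609 and 1:594, against 3.91%, 3.73% and 4.56% of all probes. Of all probes 2.97%, 1.83% and 2.55% were called higher there and 0.939%, 1.89% and 2% lower. HSP12 was the highest in each of them, at 3.84, 2.85 and 3.01, and GRE2 the lowest, at 0.21, -0.48 and -0.27. These 8 comparisons share the reference pool. Without either 1:666 array the count in 1:666 was 1, and without the 1:609 a array the count in 1:609 was 4. Without either 1:594 array the count in 1:594 was 3.

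The regulators of the response and its other targets were examined beside these genes. The MSN4 transcript read -0.31 and -0.14, -0.22 and -0.12 and -0.16 and -0.023 in 1:666, 1:609 and 1:594 and 1.31 and 1.39, 1.05 and 1.10 and 1.04 and 1.39 in the same truncations with cdk8-del. Its arrays did not overlap, and it rose by 1.57 ± 0.11, 1.24 ± 0.11 and 1.31 ± 0.11, each called. MSN2 read 0.025 and -0.14, -0.29 and -0.31 and -0.28 and -0.14 with CDK8 and 0.42 and 0.45, -0.13 and -0.072 and -0.13 and -0.024 without it. MSN2 was at 0.49 ± 0.075, 0.20 ± 0.075 and 0.14 ± 0.075, with folds under the threshold, and was not called. Its arrays without CDK8 were above those with it in each pair, an order shown by 26.3%, 22% and 20.7% of all probes. Of 29 measured genes for Msn2, Msn4 and the proteins that control them, the average over the truncations called MSN4 higher and no other besides SSN3, the deleted gene. In 1:666 BMH1 was called higher too. At an unadjusted limma p under 0.05, 15 of the 29 were higher and 3 lower on average.  All probes had 18.9% higher and 17.7% lower by that rule. Of 33 genes for carbohydrate metabolism and redox defence in the same response, which cover trehalose, glycogen, hexose phosphorylation, antioxidants and aldehyde dehydrogenases, 21, 12 and 10 were called higher with cdk8-del in 1:666, 1:609 and 1:594, and 0 lower, and with the replicate block 21, 14 and 12. On average 16 were, at a median of 0.72, among them the trehalose synthesis genes TPS1 (0.95), TPS2 (1.29) and TSL1 (1.73). Of all probes 3.26%, 1.36% and 1.63% were called higher in 1:666, 1:609 and 1:594, and 2.33% on average. With the block the shares were 2.32% in 1:609 and 2.16% in 1:594. A further list held 21 measured genes, mostly for chaperones that mainly answer to the heat shock factor Hsf1. Of these 5, 1 and 1 were called higher in 1:666, 1:609 and 1:594, against the same shares of all probes. With the replicate block 6, 4 and 3 were, and the medians were 0.046, -0.093 and -0.020. On average 3 were called higher, 4 with the block, at a median of 0.030. The 3 were HSP42 (1.14), SSA4 (1.22) and HSP30 (1.94), of which HSP30 encodes a membrane protein and not a chaperone. Cytosolic ribosomal protein genes, which are known to fall when the general stress response is switched on, had 0 of 128 members called by limma in either direction with cdk8-del in 1:666, 1:609 or 1:594 or on average. At an unadjusted p under 0.05, 0 of them were higher and 23 lower on average, where 18.9% of all probes were higher and 17.7% lower. Their median was -0.050, and with the replicate block 0 were called.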

How the data were processed

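The deposited scanner files hold, per the file headers, the mean intensity and median local background intensity of each spot in both channels, neither subtracted nor normalised. The authors also deposited log2 ratios, which the series description gives as normalised to total mRNA; their direction, strain over reference, was read from correlations of 0.639 to 0.977 with the values computed here, and their background correction and scaling are not stated there. Arrays were computed from the intensities. Background was corrected by normexp (offset 50), and lowess over the 12776 gene spots of an array (span 0.4, 3 iterations) scaled its log2 ratios. Ratios were oriented as strain over reference, and the 2 spots of each probe were averaged. Gene symbols came from the platform annotation, and 5324 of 5326 matched the RefSeq table of assembly R64, used for names and neighbours only. A probe was above background at 3 background standard deviations.

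The 16 arrays entered 1 limma model (3.58.1, R 4.3.3) with strain means as terms (8 residual and 2.57 prior degrees of freedom), and 18 two-sided comparisons were taken from it, with Benjamini-Hochberg adjustment over 6388 probes. The number of arrays limits the precision. The fold threshold and the p threshold are those of the series description, which does not say whether its p was adjusted. With strain means removed, arrays of the same letter correlated at 0.599 to 0.915 between strains, and for 16 of 16 the best match among other strains had the same letter, so the letter, which is also the dye orientation, pairs the arrays; the blocked fit is given beside results whose call it changed. The 35 genes, the other gene lists and the tests were chosen with earlier results of these data known. Values on every array are given for HSP12, HSP26, DDR2, SPI1, YGP1, GPD1 and XBP1 and for the 12 called genes with the largest differences among strains; every other stress gene is named with its value in a comparison, and of each other list up to 3 called genes are named in list order. The scripts were tested on simulated data. Alternatives were plain background subtraction, print-tip lowess, median centring, external control scaling, probes above background on every array, the deposited ratios, the replicate block, an unadjusted p, and leaving out each array; external control scaling and median centring with the replicate block were added after seeing the data. Probe sequences were not used here, so signal shared between close copies (GND2 and GND1, SOL4 and SOL3, NQM1 and TAL1, GPD1 and GPD2, UBI4 and the other ubiquitin genes) was not examined. Figures were drawn with matplotlib 3.10.9.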

Additional observations from a re-analysis of the deposited data

Results flagged for a closer look

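With the replicate block, limma called the rise with cdk8-del smaller in 1:609 than in 1:666 for 10 stress genes, and the same test was not passed without the block. With median centring and the block the count was 2, and with external control scaling and the block it was 1. The difference, 1:609 less 1:666, was -2.19 for HSP12, -1.56 for HSP26, -0.91 for STF2, -1.62 for SPI1 and -1.10 for RTN2. It was -1.58 for MSC1, -0.88 for GND2, -1.20 for NQM1, -0.90 for TFS1 and -0.94 for DCS2. Blocked adjusted p-values from limma ran from 0.0015 for HSP12 to 0.0094 for SPI1, and unblocked ones from 0.062 for HSP12 to 0.16 for HSP26.

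The rise was called smaller in 1:594 than in 1:666 for 12 stress genes with the block, for 3 with median centring and the block, and for 9 with external control scaling and the block. Here the difference, 1:594 less 1:666, was -2.40 for HSP26, -1.97 for HSP12, -1.77 for SPI1, -1.67 for MSC1, -1.30 for DDR2 and -1.28 for RTN2. It was -1.22 for NQM1, -1.04 for GND2, -1.01 for STF2, -0.97 for TFS1, -0.82 for DCS2 and -0.78 for OM45. Blocked adjusted p-values from limma ran from 3.8e-04 for HSP26 to 0.0064 for OM45, and unblocked ones from 0.029 for HSP26 to 0.38 for DDR2. Both sets of differences use the same 1:666 and 1:666 cdk8-del arrays, and 1:666 cdk8-del differs from its partner in MET17 as well.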

How the results depend on the processing

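No stress gene called in the unblocked fit on the lowess values changed direction in that comparison under any alternative. Genes called only under an alternative other than the replicate block were not checked for direction. With the replicate block limma called 1 stress gene in fcp1-mut, 1 in 1:713 and 5 in 1:666 against the reference, 3 in 1:666 and 5 in 1:594 against 1:713, and 10 and 12 in the differences of the cdk8-del effects of 1:609 and 1:594 from 1:666; it ended no call. An unadjusted p gave 1, 1, 5, 3, 5, 14 and 14 in the same order, and the deposited log2 ratios 1, 1, 5, 1, 5, 6 and 11. Print-tip lowess gave 1 in fcp1-mut, and plain background subtraction 1 in the difference of 1:594 from 1:666. Median centring gave 0, 3 and 2 in 1:666, 1:609 and 1:594 against the reference, 1 and 1 in 1:609 and 1:594 against 1:713, and 20, 10 and 9 for cdk8-del in 1:666, 1:609 and 1:594. External control scaling, under which the median of all probes lay between -0.54 and -0.032 against the reference and between -0.062 and 0.32 for cdk8-del, gave 0 in these 8 comparisons, 1, 0 and 0 in the cdk8-del strains with 1:666, 1:609 and 1:594 against the reference, and 11 for the cdk8-del average. In the 8 comparisons, 1, 6 and 2 of all probes were called in 1:666, 1:609 and 1:594 against the reference, and 0 in the others. In those cdk8-del strains 4, 3 and 6 of all probes were called, and 21 for the average. External control scaling moved the median of the stress genes in 1:594 against 1:713 from -0.056 to 0.0084. External control scaling with the replicate block gave 3, 1, 12 and 17 in fcp1-mut, 1:713, 1:666 and 1:609 against the reference. There 317, 34, 126 and 972 probes were called in all. Of these stress genes 1 was called higher, in 1:609, and all others lower. That setting gave 1 in 1:666 against 1:713, of 6 probes, and 1 and 9 in the differences, of 3 and 28 probes. Median centring with the block gave 1, 1 and 5 in fcp1-mut, 1:713 and 1:666 against the reference, 1 and 5 in 1:666 and 1:594 against 1:713, and 2 and 3 in the differences. Leaving out each array in turn gave 1 to 1 in 1:666, 4 to 5 in 1:609 and 3 to 3 in 1:594 against the reference, 2 to 3 in 1:609 and 1 to 3 in 1:594 against 1:713, 13 to 16 and 13 to 26 for cdk8-del in 1:609 and 1:594, and 0 to 9 in the difference of 1:594 from 1:666; the single array of a strain was then assumed to vary like the others. Where a setting ended a call, the cause was not tested. The 2 arrays per strain and the spread between dye orientations limit what the differences between effects can show.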
